A study of Mus musculus with 2 samples.

Results

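Distal chromosome 7 genes are here the rows of a deposited gene table that start at or beyond 133.9 Mb on mouse chromosome 7 (build mm9), less 22 rows left out by name. The rule found 292 of the 22216 genes in the table, and the region ran from 133903140 to 152509964, near the end of the chromosome. Spleen RNA of 2 groups of mice was sequenced, NOD.g7 and NOD.L7, with 1 library per group made from the pooled spleens of 3 mice. The labels tell the groups apart by genotype only. NOD, short for non-obese diabetic, names an inbred mouse line prone to autoimmune diabetes, and the series title writes the second genotype NOD.Lc7. The age, sex and treatment of the mice and the meaning of g7, L7 and Lc7 are not given in the labels.

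Values are RPKM (read depth per unit of gene length, scaled to the size of each library), as computed by the authors. With 1 library per group there is no replicate check, no spread between mice and no test. Every difference is between these 2 libraries, each of them a pool. The region was chosen because differences between the same libraries had been seen in it, so its counts are a description and support nothing beyond themselves.

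The distal end of mouse chromosome 7 holds genes of unrelated function side by side. It is known for imprinted domains around Igf2 and H19 and around Kcnq1 and Cdkn1c, in which a gene is expressed from the copy of only the mother or only the father. It also holds housekeeping genes, genes of leukocyte signalling and motility, and clusters of olfactory receptor, mucin and keratin-associated protein genes that are used outside the spleen.

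Most of these genes had nearly the same level in both libraries, and a few with low levels differed several-fold. The mucosal scavenger receptor gene Dmbt1 was 12.8-fold higher in NOD.L7 and the cation channel gene Trpm5 12.5-fold higher. The Mas-related receptor gene Mrgpre was 4.57-fold lower, and the long non-coding RNA gene 1700120K04Rik was 3.47-fold lower. All of them had an RPKM under 6 in both libraries, while the abundant genes of the region, such as Lsp1, Sept1 and Aldoa, were alike.

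The sequence just before the start is shown first for 3 of the 4 genes that differed most, Mrgpre, Trpm5 and 1700120K04Rik, each of which has few CpG dinucleotides there. A window for Dmbt1 was not used here. Windows are the 250 bases before the gene start in RefSeq on GRCm38.p6, read 5′ to 3′ along the gene's strand, with each CpG in capitals. They are from the C57BL/6J reference, not from these mice. Mrgpre is at chr7:143784501-143784750 on the minus strand, Trpm5 at chr7:143094643-143094892 on the minus strand, and 1700120K04Rik at chr7:127604446-127604695 on the minus strand. The first of 2 windows of Mgmt, a gene higher in NOD.L7, is at chr7:136894336-136894585 on the plus strand and is shown beside them because its CpG number is near the median of kept genes.
Mrgpre: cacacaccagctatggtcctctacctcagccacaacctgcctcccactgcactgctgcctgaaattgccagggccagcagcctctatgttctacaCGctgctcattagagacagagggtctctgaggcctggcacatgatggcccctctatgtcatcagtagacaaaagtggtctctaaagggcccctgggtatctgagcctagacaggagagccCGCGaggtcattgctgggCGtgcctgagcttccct
Trpm5: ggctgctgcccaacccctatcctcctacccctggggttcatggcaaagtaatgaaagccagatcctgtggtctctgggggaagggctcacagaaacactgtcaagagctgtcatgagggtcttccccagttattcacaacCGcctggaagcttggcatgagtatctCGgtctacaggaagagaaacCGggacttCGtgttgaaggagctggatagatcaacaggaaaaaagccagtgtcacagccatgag
1700120K04Rik: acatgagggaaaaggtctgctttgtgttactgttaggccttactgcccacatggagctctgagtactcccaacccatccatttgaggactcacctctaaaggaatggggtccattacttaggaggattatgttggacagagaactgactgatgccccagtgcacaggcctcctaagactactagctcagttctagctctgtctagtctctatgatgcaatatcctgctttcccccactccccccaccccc
Mgmt: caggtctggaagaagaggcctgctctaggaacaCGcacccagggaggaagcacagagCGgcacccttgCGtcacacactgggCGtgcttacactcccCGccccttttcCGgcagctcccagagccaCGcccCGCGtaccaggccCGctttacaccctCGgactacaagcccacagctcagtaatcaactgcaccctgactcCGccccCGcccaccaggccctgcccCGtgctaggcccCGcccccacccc

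The windows of Mrgpre and Trpm5 each held 4 CpG and that of 1700120K04Rik held 0. The window of Mgmt shown held 15, and its second window, at chr7:136912848-136913097, held 2. Over the kept genes of the whole table (RPKM of at least 1 in either library), with the first listed window of each, the median window held 16 CpG, and 11.7% of 8849 windows held at most 4. Among kept genes of the region, the 23 windows of genes with both values under an RPKM of 5 had a median of 11 CpG, against 15 for the 99 windows of genes at 5 or more. At most 4 CpG were held by 6 of those 23 windows (26.1%) and by 11 of the 99 (11.1%). Not every gene with a difference had few CpG, since B4galnt4 had 30 in its window and Tspan4 24 in its first and 8 in its second. Low level and CpG content move together here, and their part in the differences was not tested. Motifs were searched on both strands. The TATA box was taken as the letters TATAAA, the CCAAT box as its name, and the GC box as the letters GGGCGG. The GATA motif was taken as the letters AGATAA and the PU.1 motif as the letters GAGGAAG. None of them occurred in the windows of Mrgpre, Trpm5 or 1700120K04Rik. The first window of Mgmt held the GC box at 4 places, on the reverse strand, and the PU.1 letters at 1, 207 bases before the start. Of all 32851 promoter windows, 32.7% held the GC box, 33.8% the CCAAT box, 12.4% the TATA box, 10.6% the PU.1 letters and 9.99% the GATA letters. Over the 8849 windows of kept genes these shares were 59.6% for the GC box, 36.9% for the CCAAT box, 6.24% for the TATA box, 11.1% for the PU.1 letters and 5.85% for the GATA letters. Of the 12 genes of the region with an absolute log2 ratio of at least 0.5, 7 had a window in the table, too small a share for a comparison of the set.

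Of the 292 genes, 53 were listed at 0 in both libraries and 87 more stayed under an RPKM of 1 in both, which left 152 kept genes. Differences are log2 ratios of NOD.L7 to NOD.g7 after adding 1 to each RPKM, a scale that makes differences of low genes look smaller, and folds are plain ratios of RPKM. A log2 ratio of at least 1 in size was taken as past the size rule. It was reached by 4 kept genes of the region (2.63%), against 0.709% of all 11141 kept genes. The 4 were Dmbt1 and Trpm5, higher in NOD.L7 (0.386% of all kept genes were higher by as much), and Mrgpre and 1700120K04Rik, lower (0.323%). On the rest of chromosome 7 the share was 6 of 694 (0.865%), and on the other chromosomes 62 of 10274 (0.603%). Since the region was picked on this same contrast, nothing is read from the excess.

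The share also depends on the 22 rows left out by name. Of these, 21 were kept genes and 7 of them passed the size rule, among them Gdpd3, the second gene inside the border. With them the region had 11 of 173 kept genes past the rule (6.36%).

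Most kept genes of the region differed far less than those past the size rule. Their median absolute log2 ratio, over all 152, was 0.097, against 0.081 over all kept genes. Among genes whose higher value was an RPKM of 20 or more it was 0.093, against 0.061 over all kept genes at that level. The median log2 ratio of the 152 genes was 0.01, against 0.02 over all kept genes, with 82 higher and 70 lower in NOD.L7 (53.9% higher, against 56.2% over all kept genes). A total of 128 genes (84.2%) lay within 0.25 of 0, against 86.4% of all kept genes. At a smaller size of 0.5 or more there were 12 genes (7.89%), against 4.1% of all kept genes, 10 of them higher and 2 lower in NOD.L7, where the shares over all kept genes were 2.52% and 1.58%. The summed RPKM of the 152 genes was 3575 in NOD.g7 against 3557 in NOD.L7.

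**Figure D1:**
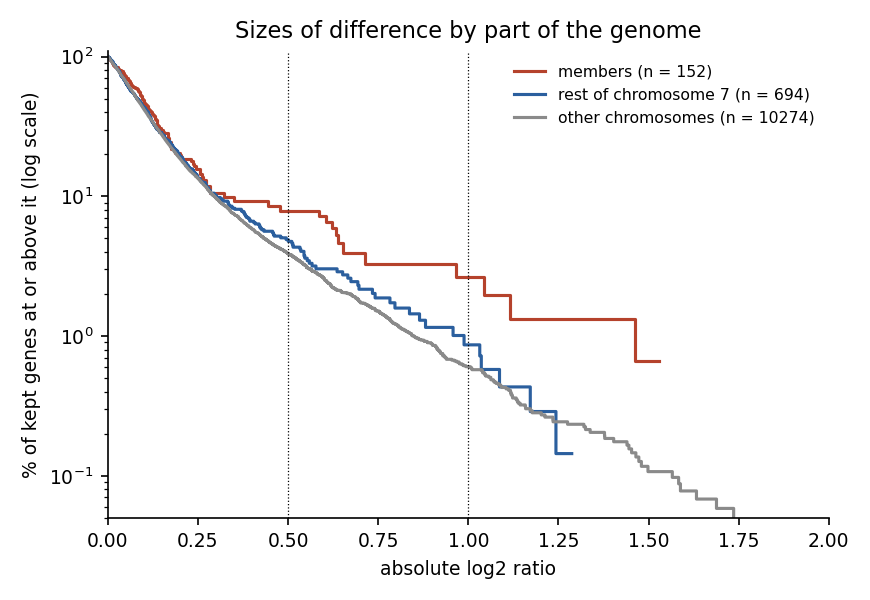
Share of kept genes (log scale) at or above each absolute log2 ratio, for the 152 kept genes of the region (red), the rest of chromosome 7 (blue) and the other chromosomes (grey), with dotted lines at 0.5 and 1. The curves run together up to about 0.25, and the red curve then flattens, with 7.89% of genes at 0.5 or more and 2.63% at 1 or more.

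The larger differences were most frequent among the low genes. Of the 34 kept genes whose higher value was under an RPKM of 5, 6 reached an absolute log2 ratio of 0.5 (17.6%, against 7.35% of all kept genes at that level). Of the 68 genes from 5 to 20, 5 did, Mrgpre among them (7.35%, against 3.63% of all kept genes at that level). Of the 50 genes at 20 or more, 1 did, the integrin gene Itgad (2%, against 2.33% of all kept genes at that level). The median of the higher value was 3.84 for the 12 genes and 11.9 for the other kept genes.

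**Figure D2:**
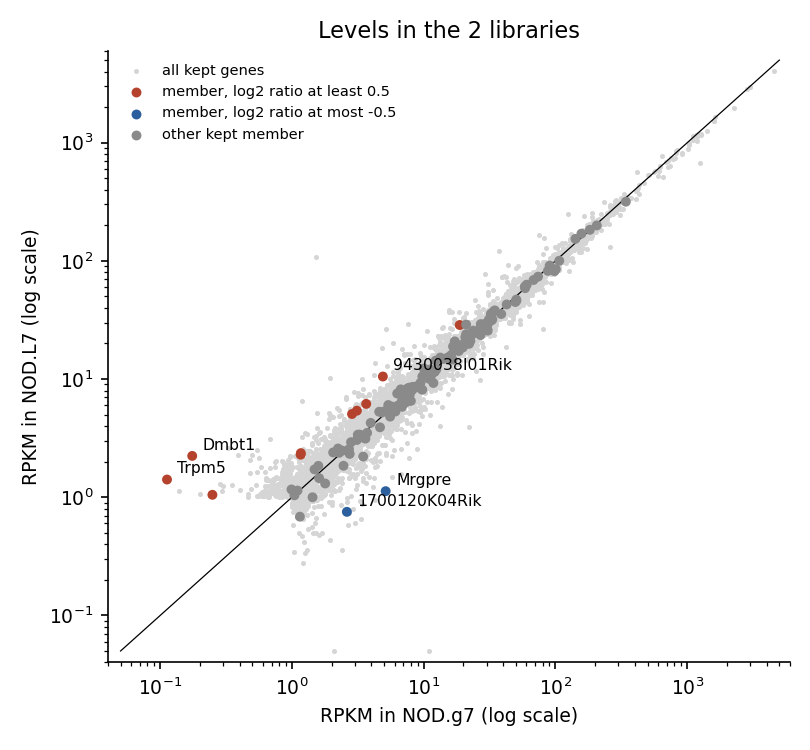
RPKM in NOD.L7 against RPKM in NOD.g7, both on log scales, for the kept genes of the region over all kept genes of the table (light grey, values under 0.05 drawn at 0.05), with the line of equal levels. Genes at an RPKM above 100 lie close to the line, and the genes furthest from it, Dmbt1, Trpm5, Mrgpre and 1700120K04Rik, have values under 6.

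Each library's depth gives the counting error behind such low values. The steps between low RPKM values corresponded to 9.13 Gb of mapped sequence for NOD.g7 and 12.1 Gb for NOD.L7. Fragments per gene were approximated at 200 bases each, and the 95% interval of a fold was taken from an exact binomial (Clopper-Pearson) interval. These intervals cover counting error only and leave out all variation between mice and libraries.

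Dmbt1 (chromosome 7, 138175590 to 138265142 in mm9) encodes a secreted scavenger receptor of mucosal surfaces that binds bacteria. Its RPKM was 0.175 in NOD.g7 against 2.24 in NOD.L7, about 50 and 848 fragments, and the counting interval of its fold was 9.62 to 17.4. It was near the floor in NOD.g7 and low in NOD.L7, and its log2 ratio of 1.46 was the 19th largest in size of all kept genes. The kept gene before it, Plekha1, which encodes an adaptor that binds phosphoinositides, was at 21 in NOD.g7 against 28.9 in NOD.L7, 1.38-fold higher (1.32 to 1.44). The kept gene after it, 2310057M21Rik, was at 5.47 and 5.52. Of 25 genes on the list of secreted, mucosal and growth factor genes 3 were kept, Dmbt1, Pstk and the desmosomal gene Pkp3, of which Dmbt1 alone encodes a secreted protein. Of the others 4 were at 0 in both libraries, and the rest were under the filter, up to an RPKM of 0.820 for the protease gene Prss36. Pstk, the kinase that acts on the selenocysteine transfer RNA, was at 7.75 and 8.45, and Pkp3 was at 12.3 and 14.3. Mucin genes and the growth factor genes Fgf3, Fgf4 and Fgf15 were among those under an RPKM of 1.

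Trpm5 (150257434 to 150280547) encodes a calcium-activated cation channel best known from taste cells and tuft cells. It was at 0.113 in NOD.g7 against 1.41 in NOD.L7, about 21 and 352 fragments, and the counting interval ran from 8.15 to 20.7. Trpm5 lies between Tssc4 and the potassium channel gene Kcnq1 in the imprinted Kcnq1 domain. Kcnq1 (150293159 to 150612947) was below the filter in both libraries, at 0.00754 and 0.211. That was about 1 and 39 fragments, a ratio of 28.0 with a counting interval of 4.98 to 1193. Both adjacent channel genes were thus near 0 in NOD.g7 and higher in NOD.L7, while Tssc4 on the other side was at 13.4 and 15.2, 1.14-fold higher (1.05 to 1.23).

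The kept genes on the list of imprinted domains did not follow Trpm5. That list does not hold every gene of the stretch. Cars, given below, is not on it, nor are some rows left out by name. Of these, Cd81, next to Tssc4, was higher in NOD.L7 at 82.3 and 155.9. Tspan32 was lower at 63.0 and 34.0, as were Tnfrsf26 and Tnfrsf22. Of 15 genes on the list of imprinted domains 4 were kept. All 4 lay within 0.25 of 0, 3 higher and 1 lower, and their median log2 ratio was 0.09 (0.02 over all kept genes). Nap1l4, a histone chaperone gene, was at 58.5 and 60.5. The oxysterol-binding protein gene Osbpl5 was at 10.8 and 11.9, and Dhcr7, the last enzyme of cholesterol synthesis, at 11.3 and 10.5. Kcnq1ot1, the long non-coding RNA that silences the Kcnq1 domain on the paternal copy, lies inside Kcnq1 and was at 0.219 and 0.253, 1.16-fold higher (1.06 to 1.26). Its ratio was thus far smaller than that of Kcnq1 itself, although the use of strand in counting is not known and reads of overlapping genes cannot then be told apart. Cdkn1c, the cell cycle inhibitor p57, was at 0.385 and 0.162, about 33 and 19 fragments, 0.420-fold (0.234 to 0.787). The growth factor gene Igf2 was at 0.0794 and 0.0380, about 17 and 11 fragments, with a fold interval of 0.207 to 1.11 that holds 1. Its partner H19, a non-coding RNA of the same domain, was listed at 0 and 0.0131, and Ins2, an insulin gene, and Th, the enzyme that starts dopamine synthesis, at 0 in both. The fetal growth genes of the domains were therefore close to the floor in both spleens.

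Mrgpre (150964268 to 150970405), beyond Osbpl5, encodes a Mas-related G protein-coupled receptor of a family known from sensory neurons and mast cells. It was at 5.14 in NOD.g7 against 1.13 in NOD.L7, about 882 and 256 fragments, a fold of 0.219 (0.190 to 0.252). Its log2 ratio of -1.53 was the largest in size in the region and the 14th largest of all kept genes. The next kept gene, Nadsyn1, which makes NAD, went the other way at 6.69 and 8.18, 1.22-fold higher (1.12 to 1.33). The transfer RNA ligase gene Cars, nearer the centromere, was lower at 11.8 and 9.26, 0.783-fold (0.733 to 0.837). Neighbours within this stretch thus differed in opposite directions. Of the other Mas-related receptors in the region, Mrgprg, Mrgprf and Mrgprd, none was kept.

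1700120K04Rik (134747417 to 134747959), a long non-coding RNA gene of 543 bases in RefSeq, was at 2.61 in NOD.g7 against 0.752 in NOD.L7. Those values stood for about 65 and 25 fragments, a fold of 0.288 (0.175 to 0.467). The zinc finger gene Zfp629, the next kept gene, was also lower, at 2.46 and 1.85, 0.750-fold (0.673 to 0.835). Rnf40, the kept gene just before 1700120K04Rik, was higher in NOD.L7, at 33.8 and 37.1, 1.10-fold (1.07 to 1.13). The table did not show the span of 1700120K04Rik or Zfp629 to overlap another row.

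**Figure D3:**
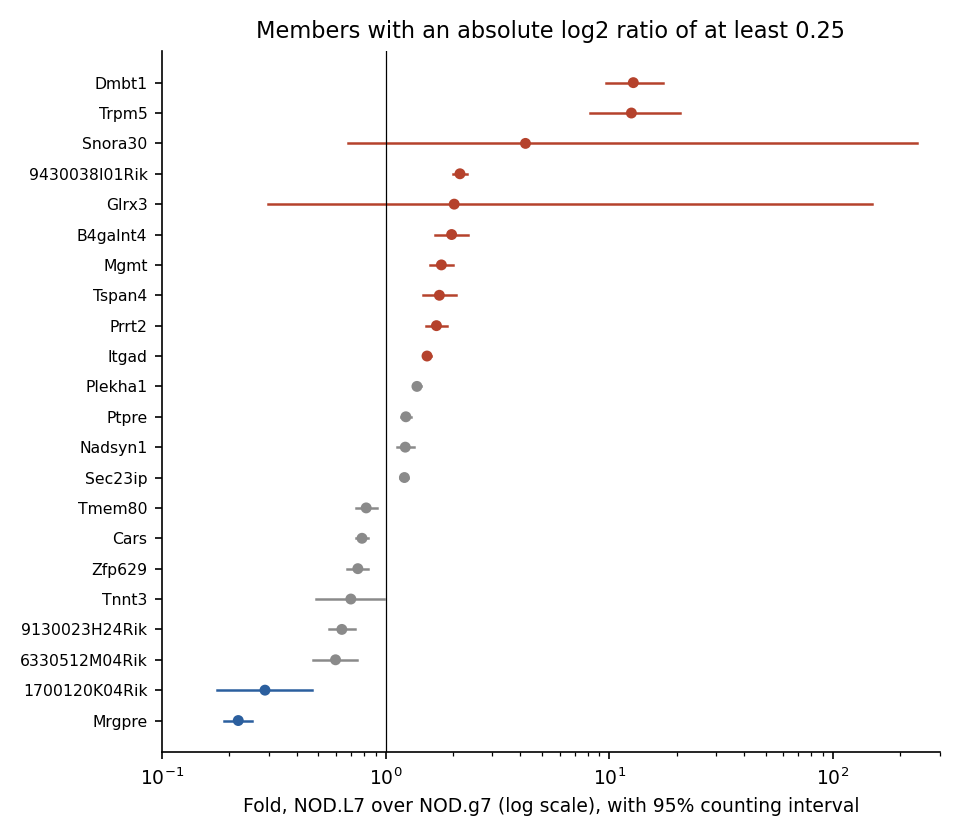
Plain fold of NOD.L7 over NOD.g7 (log scale) with its 95% counting interval for 22 kept genes with an absolute log2 ratio of at least 0.25, red at 0.5 or more, blue at -0.5 or less and grey between. Dmbt1 and Trpm5 stand above 8-fold with their whole intervals, and the intervals of Snora30 and Glrx3 span 1 because they rest on few fragments.

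The remaining genes at 0.5 or more were all higher in NOD.L7. The uncharacterised gene 9430038I01Rik (144567252 to 144602439) was at 4.90 in NOD.g7 against 10.5 in NOD.L7, 2.15-fold higher (2.002 to 2.304), and its log2 ratio of 0.96 fell just short of the size rule. Mgmt (144086294 to 144319871), the gene of the enzyme that removes alkyl groups from guanine in DNA, was at 2.86 and 5.06, 1.77-fold higher (1.57 to 2.01). Glrx3, the kept gene after 9430038I01Rik, encodes a glutaredoxin that handles iron-sulfur clusters, and was listed at 1.17 and 2.36. The Glrx3 row covered 26 bases, 0.0811% of the span of the gene in RefSeq, and about 1 and 4 fragments, with a fold interval of 0.299 to 149. So 3 adjacent kept genes were above 0.5, but only Mgmt and 9430038I01Rik rested on more than a few fragments. They stood within a run of 7 consecutive genes of the 152 that were higher in NOD.L7, from Ptpre to Ppp2r2d, with log2 ratios from 0.04 to 0.96. Mki67, left out by name, lies between Ptpre and Mgmt. It was slightly lower in NOD.L7, at 16.4 and 16.0, and so breaks that run on the chromosome. Ptpre, a receptor-type tyrosine phosphatase gene, was at 10 and 12.3, 1.23-fold higher (1.17 to 1.29).

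Itgad (135317460 to 135348948), the gene of integrin alpha D, known from splenic red pulp macrophages, was at 18.8 in NOD.g7 against 28.7 in NOD.L7, 1.53-fold higher (1.47 to 1.59). Of 8 monocyte and red pulp macrophage markers in the table, all 8 were higher in NOD.L7, with a summed RPKM of 249.98 and 436.75, and none was at 0. The share of that marker shift in the Itgad difference was not tested, and in whole spleen a difference in the number of cells of a type and one in RNA per cell cannot be told apart. The nearby row 9130023H24Rik was lower, at 3.47 and 2.21, 0.636-fold (0.555 to 0.731). Further along, Tspan4, a tetraspanin gene, was at 3.11 and 5.398, 1.74-fold higher (1.47 to 2.05). B4galnt4, a glycosyltransferase gene, was at 1.16 and 2.29, 1.97-fold higher (1.66 to 2.34). Prrt2, which encodes a presynaptic membrane protein, was at 3.66 and 6.16, 1.68-fold higher (1.51 to 1.88). The small nucleolar RNA gene Snora30 was at 0.249 and 1.05, about 1 and 7 fragments, and its fold interval of 0.679 to 238 holds 1. Of the 12 genes at 0.5 or more, the counting interval of the fold left out 1 for 10, all but Snora30 and Glrx3.

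**Figure D4:**
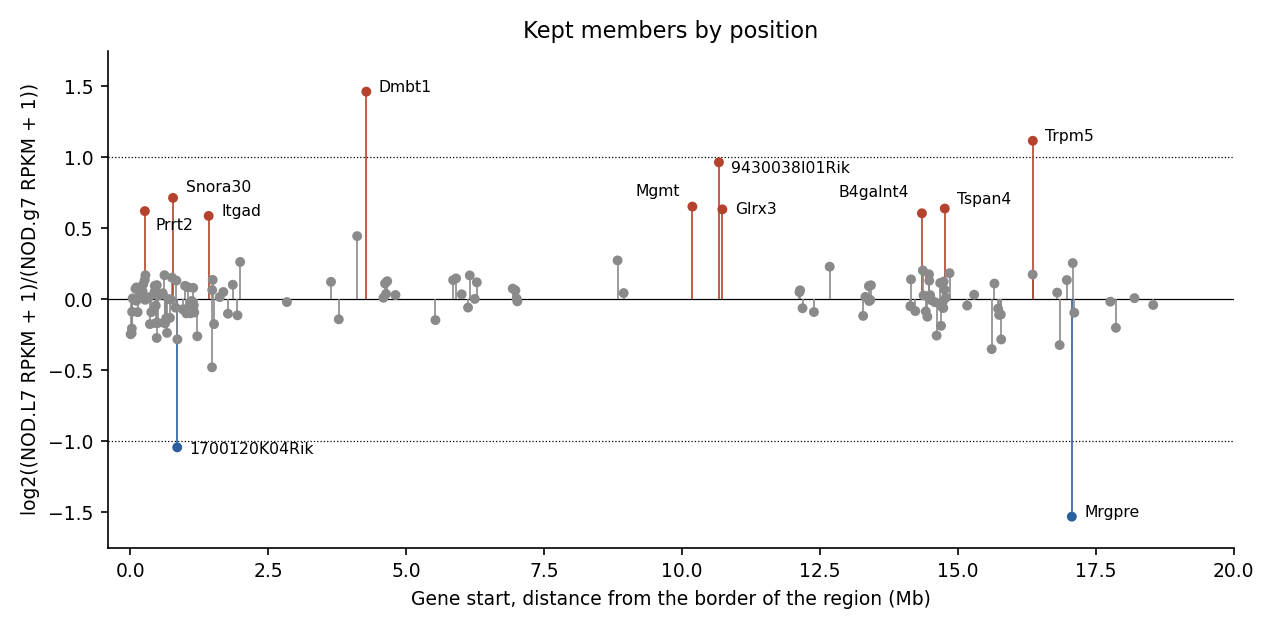
Log2 ratio of each of the 152 kept genes against the distance of its start from the border of the region in Mb, with dotted lines at 1 and -1 and the 12 genes at 0.5 or more in size named (red higher, blue lower in NOD.L7). Among the genes drawn, the named ones are scattered from Prrt2 to Mrgpre with neighbours close to 0, and Mgmt, 9430038I01Rik and Glrx3 are the 1 run of 3. The rows left out by name are not drawn.

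By position the differences among the 152 kept genes were scattered, with 1 cluster of 3, in which Glrx3 rested on few fragments. The rows left out by name add others. Itgax and Cox6a2, on either side of Itgad, had log2 ratios of 0.52 and 0.998. Ifitm2 and Ifitm1 had log2 ratios of 1.03 and 1.27. Just outside the border Slx1b was at 3.49 and 3.41, Bola2 at 54 and 52.4, and the actin-binding gene Coro1a at 906.8 and 800.6. Just inside it Mapk3, the kinase ERK1, was at 30.6 and 25.7, a log2 ratio of -0.25, and Ypel3 was at 100.6 and 85.1, a log2 ratio of -0.24. Between Mapk3 and Ypel3 lies Gdpd3, left out by name, at 1.53 and 107.8, so the genes on both sides of it were slightly lower in NOD.L7. The transcription factor gene Tbx6, next in order, was at 4.66 and 3.90, and Aldoa, a glycolytic enzyme gene, at 182.4 and 183.2.

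Long stretches held no difference of note. From Maz to 1700008J07Rik (134165651 to 134656383) 24 consecutive kept genes lay within 0.5 of 0, and from 2310057M21Rik to Dhx32 (138486232 to 140968486) 17 lay within 0.25. In windows of 11 consecutive kept genes the mean absolute log2 ratio was lowest from Ppp4c to Mvp, at 0.05, and highest from Tnnt3 to Fadd (149684741 to 151768341), at 0.38, the window that holds Trpm5 and Mrgpre. Of its 11 genes 5 were higher in NOD.L7, its median log2 ratio was -0.02, and its median absolute log2 ratio was 0.20, against 0.10 over all kept genes of the region. Windows and neighbours here pass over the rows left out by name. The same stretch also holds Tspan32, Cd81, Tnfrsf26 and Tnfrsf22 of those rows, with log2 ratios of -0.87, 0.91, -3.58 and -1.22. Of 151 pairs of neighbouring kept genes in the region, 77 differed in the same direction (51.0%), beside 54.5% of pairs on the rest of chromosome 7 and 53.5% on the other chromosomes. The log2 ratios of neighbours correlated with a Pearson r of 0.10 in the region, 0.11 on the rest of the chromosome and 0.16 elsewhere. These are correlations across genes that share both libraries, given as a description.

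Genes of the leukocyte cytoskeleton and of signalling were the most abundant group and were close between the libraries. Of 28 on the list 24 were kept, 13 higher and 11 lower in NOD.L7, none reached 0.5, and the median log2 ratio was 0.01. Lsp1, an actin-binding protein gene of leukocytes, was at 342.1 in NOD.g7 against 317.0 in NOD.L7. Sept1, a septin gene of lymphocytes, was at 205.9 and 199.6, and Spn, the sialoprotein CD43 of T cells and other leukocytes, at 106.8 and 100.3. These 3 were a little lower in NOD.L7, with log2 ratios from -0.11 to -0.04. Beside them, 6 of 6 B cell markers were lower in NOD.L7, with a summed RPKM of 2255 and 1879.8, and of 6 T cell markers 3 were higher and 3 lower. Rgs10, a regulator of G protein signalling, was at 68.1 and 68.9. Sigirr, an inhibitor of interleukin-1 and Toll-like receptor signalling, was at 21.1 and 21.5, and Tollip, an adaptor of the same pathway, at 18.9 and 18.3. Hras1, a small GTPase gene, was at 6.85 and 7.86, and Fadd, the adaptor of death receptors, at 6.84 and 5.82. Inpp5a, an inositol phosphatase gene, was at 6.29 and 7.55. The largest difference of the group was the 1.38-fold of Plekha1.

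Genes of transcription, chromatin and RNA kept 27 of 32, 11 higher and 16 lower in NOD.L7, none reached 0.5, and the median log2 ratio was -0.00371. The zinc finger gene Maz was level at 73.7 and 73.5. Zfp688 was at 9.75 and 8.13, and Zfp629 had the lowest ratio of the group.

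Metabolic and mitochondrial genes kept 24 of 27, 14 higher and 10 lower, with a median log2 ratio of 0.06. Ctsd, the lysosomal protease cathepsin D, was at 157.4 and 170.0, and Taldo1, an enzyme of the pentose phosphate pathway, at 141.7 and 153.6. Both were 1.08-fold higher in NOD.L7. The haem synthesis gene Uros was at 7.84 and 8.24, while all 7 kept erythroid markers were lower in NOD.L7, with a summed RPKM of 116.8 and 54.7. Qprt, an enzyme of NAD synthesis, was at 5.56 and 4.81, and the phosphatase gene Lhpp at 2.24 and 2.58. The Glrx3 row was the 1 metabolic gene at 0.5 or more.

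Genes of chromosome segregation and DNA repair kept 8 of 12, 5 higher and 3 lower, and Mgmt alone reached 0.5. Nsmce4a, a subunit of the SMC5/6 complex, was at 49.6 and 44.9, and Bccip, a partner of BRCA2, at 42.6 and 42.8. The mitotic kinesin gene Kif22 was at 4.59 and 5.29, and Fam175b, a subunit of a deubiquitinating complex, at 16.7 and 18.9. Genes of membrane traffic and protein turnover kept 21 of 25, 13 higher and 8 lower, with a median log2 ratio of 0.01, and Tspan4 alone reached 0.5. Stx4a, a syntaxin of the plasma membrane, was at 50.4 and 47.0, and Sec23ip, a protein of vesicle export from the endoplasmic reticulum, at 17.2 and 20.8. Tmem80 was at 7.99 and 6.53, and its span overlaps that of Deaf1.

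Of 25 ion channel, sensory receptor and synaptic genes on the list 8 were kept, 5 higher and 3 lower in NOD.L7, and 4 reached 0.5, namely Mrgpre, Trpm5, Prrt2 and B4galnt4. B4galnt4 was placed on this list although it is a glycosyltransferase gene. Of all kept genes 4.1% reached 0.5. By the higher value, the share was 7.35% under an RPKM of 5, the level of Trpm5 and B4galnt4. It was 3.63% from 5 to 20, the level of Mrgpre and Prrt2. The region was picked on this contrast, and nothing is read from the count of the group. The endolysosomal channel gene Tpcn2, also of this group, was at 6.90 and 6.68. The muscle list kept 4 of 5, 1 higher and 3 lower in NOD.L7, and none reached 0.5. The 1 higher was Armc5, at 9.84 and 10.3, which is not a contractile protein gene. The 3 lower were Mylpf, a myosin light chain gene, at 6.10 and 5.32, and the troponin genes Tnni2 and Tnnt3 at 3.72 and 3.51 and at 1.43 and 0.999. The counting intervals of the folds of Armc5 (0.987 to 1.12), Mylpf (0.723 to 1.05) and Tnni2 (0.759 to 1.18) hold 1, and that of Tnnt3 (0.486 to 0.982) lies just below it. No gene of 19 olfactory receptors was kept, with 14 at 0 in both libraries, and all 5 keratin-associated protein genes were at 0 in both. Of the kept genes, 32 were on none of these lists, 16 higher and 16 lower in NOD.L7. Among them AI467606 was at 90.3 and 91.2, Gm4532 at 1.79 and 1.31, and 6330512M04Rik, named Ifitm10 in RefSeq, at 1.15 and 0.685.

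Over the series, the lists of B and T cell markers were well above the filter in both libraries, as the label spleen implies. NK cell markers were lower in NOD.L7 for 6 of 6, and neutrophil markers were higher for 6 of 8. No member of these lists was at 0. Of the 5 genes on the pancreas list, Ins2 and Amy2a5 were at 0 in both libraries. The others were not: Cela1 passed the filter, with an RPKM of 2.29 for NOD.g7 against 2.65 for NOD.L7. Prss2 (0.667 against 0.277, NOD.g7 first) and Ctrb1 (0.667 against 0) stayed under the filter and were lower in NOD.L7.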

How the data were processed

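Spleen RNA was sequenced from TruSeq libraries after RNeasy extraction, per the labels' protocols. The deposited RPKM values were computed by the authors, with genome build mm9, CASAVA 1.8.2 and SAMtools 0.1.18 per the submitters' processing notes. Not given in the sources used here are the gene models, the use of strand and the handling of multi-mapped reads, which can shift the level of short, overlapping or duplicated genes. Of the 152 kept genes 11 overlap another row, and the span of 13 was under 50% of that in RefSeq (GRCm38.p6). The column NOD was taken as NOD.g7 and NOD.LC7 as NOD.L7 from the series title.

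Depth came from 754 single-exon genes whose span equals that in GENCODE M21: of their low values, 144 (NOD.g7) and 161 (NOD.L7) were used and 100% were whole multiples of 1 base, within 0.15. Fragment numbers use 200 bases and the longest GENCODE transcript, or the row's span where shorter. Log2 ratios use a pseudocount of 1 and a filter at an RPKM of 1. No count model and no test was used. Symbols of 290 of 292 genes matched RefSeq, 31 by an older symbol. The members, lists and size rule were chosen with earlier results of these data known. Named genes were those past the size rule, the 10 highest and 10 lowest ratios, up to 4 most different and 2 most abundant per list, the 8 most abundant, the genes at the border and 20 fixed by name. Of the genes named by this rule, 1 is not reported here. Kcnq1ot1, Th, Uros and other genes named outside this rule were chosen after their values were seen. Calculations were checked on simulated data and run in Python 3.11.15 with pandas 2.3.3 and scipy 1.17.1.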

Additional observations from a re-analysis of the deposited data

How the results depend on the processing

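With 1 library per genotype no setting shows how values vary between mice. No paired analysis was possible because there is a single library of each kind, and none could be left out. The 4 genes past the size rule were 11 when the rows left out by name were included (7 higher, 4 lower in NOD.L7), 1 (Mrgpre) with an RPKM minimum of 5, which leaves 118 genes, and 6 with a pseudocount of 0.1 or 0.5 (4 higher, 2 lower, adding Snora30 and 9430038I01Rik). The share of genes at an absolute log2 ratio of 0.5 or more was 7.89%, and 13.3% with the rows left out by name. It was 4.11% with no filter, which adds 140 low genes. Without the rows of under 20 fragments in both libraries, Snora30 and Glrx3, it was 6.67%. That last setting was chosen after seeing the data. The median log2 ratio turned from 0.01 to -0.01 after median centring (-0.00666) and with a TMM factor of 0.984 (-0.00942). The highest window mean was 0.38 for 11 genes and 0.25 for 25, as averaging over more genes lowers it. Of 281 results for named genes under the alternatives, 277 kept their side of the size rule and 4 newly passed it. The RPKM minimum of 5 gave results for only 45 of 59 named genes. Those it dropped, with Dmbt1, Trpm5 and 1700120K04Rik among them, are not counted there. Leaving out multigene families, overlapping genes or the first 1 Mb left 3, 4 and 3 genes past the rule. Depth limits genes with few fragments: an RPKM of 0.00754 for Kcnq1 is about 1 fragment.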

Other observations

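Below the filter, Efcab4a (148646993 to 148652501) was the gene of the region outside the imprinted domains with an RPKM above 0.3 that differed most in fold. It and the next gene were picked from the values. Its RPKM was 0.0780 for NOD.g7 and 0.377 for NOD.L7, about 6 and 39 fragments, a ratio of 4.84 with a counting interval of 2.06 to 14.2. Dock1, an activator of the GTPase Rac, was at 0.756 and 0.529, 0.700-fold (0.580 to 0.846).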
